A study of Homo sapiens with 6 samples.

Results

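The genes described here encode the nuclear pore and the machinery that carries proteins and RNA through it. They were taken by name from the deposited count tables of DU145 cells: every NUP gene with a number in its symbol, the importins, transportins, karyopherin alpha genes and exportins whose symbols begin with IPO, TNPO, KPNA or XPO, and 13 further genes (KPNB1, RAN, RANGAP1, RANBP1, RANBP2, RANBP3, AAAS, NDC1, SEH1L, SEC13, RAE1, TPR and GLE1). Rows described as pseudogenes were dropped, which removed 11 rows and left 59 genes of the 50868 in the tables. Of these, 58 passed the filter on low counts. The exception was NUP210L, a relative of the pore protein gp210, with 3 to 7 counts per library. The pore protein NUP96 is made from the same precursor as NUP98 and has no row of its own.

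A nuclear pore is a ring of nucleoporins set in the nuclear envelope. Outer and inner rings form the scaffold, proteins rich in phenylalanine-glycine repeats fill the central channel, and filaments on the cytoplasmic side and a basket on the nuclear side dock cargo. Karyopherins carry cargo across: importin alpha reads the classical import signal and binds importin beta, other importins and transportins bind cargo directly, and exportins take cargo out. The GTPase Ran sets the direction, because its exchange factor RCC1 loads it with GTP on chromatin and its activating protein RANGAP1 removes that GTP at the cytoplasmic face of the pore.

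DU145 is an androgen-independent human prostate cancer line. It was transfected with a control siRNA (siCtrl, genotype given as RCC2 wild type) or with an siRNA against RCC2 (siRCC2, genotype given as RCC2 knockdown), with 3 libraries in each group. RCC2 belongs to the same repeat family as RCC1. Per its title, the series asks how RCC2 acts on the growth and migration of prostate cancer cells and whether Hedgehog signalling through GLI1 is involved. The sources used here do not give the siRNA sequences, how many siRNAs were used, the dose or the time after transfection. Nor do they say whether replicate libraries stem from separate cultures, so the p-values speak for the spread among these libraries alone, and part of that spread may be technical.

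Values per library are given in the order of replicates 1, 2 and 3. The targeted gene, RCC2, had 3998, 3598 and 3702 counts in siCtrl against 980, 1117 and 1045 in siRCC2 (log2 fold change -1.76 ± 0.07, SE). Library totals ran from 17377191 to 19895431 counts. Levels are in CPM (read counts scaled to a common library size with TMM factors). The siRCC2 libraries differed among themselves: the second principal component of log CPM, with 16.4% of the variance, placed replicate 1 at 41.5, replicate 2 at -13.3 and replicate 3 at -35.2. Fold changes that move by over 1.5 times, or change call, without replicate 1 are therefore given both ways. Mitochondrial genes took 5.14% to 5.42% of the counts in siCtrl and 5.77% to 6.16% in siRCC2. The 6 epithelial markers summed to between 4764 and 4997 CPM in siCtrl and between 3062 and 3667 CPM in siRCC2, with KRT7 at 3588 and 1636 CPM. Without KRT7, the other 5 summed to between 1309 and 1331 CPM in siCtrl and between 1619 and 1819 CPM in siRCC2: KRT8, KRT18 and CDH1 were called higher, EPCAM lower, and KRT19 was not called. The sum of 3 endothelial markers stayed at or below 0.81 CPM, and CD3E and LUM were at 0. The fibroblast markers summed to between 12.6 and 14.7 CPM in siCtrl and to between 9.79 and 12.6 CPM in siRCC2, and the leukocyte markers, almost all of it CD68, to between 15.1 and 18.1 and to between 16.0 and 23.3 CPM. The part of these shifts in the results below was not tested. In bulk RNA, fewer cells in a state and less RNA per cell cannot be told apart.

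Transport genes moved in both directions, and more of them fell than rose. Of the 58 tested, 21 were lower in siRCC2 (36.2%) and 11 were higher (19%) at an adjusted p under 0.05 in edgeR's quasi-likelihood test. Over all 16536 genes tested, 21.1% were called lower and 20.7% higher. Most members are well expressed. Among the 8033 genes with a mean of at least 20 CPM, 21.9% were lower and 27.5% higher. Among the 54 members above that level, 19 were lower (35.2%) and 10 higher (18.5%). The median log2 fold change of the members was -0.17, against -0.02 for all genes, and single members ran from -1.50 to 3.10. The groups did not overlap in 24 members that were lower (41.4%) and in 15 that were higher (25.9%), where 28.5% and 26.9% of all genes tested did not. The count of lower members was 24 without siRCC2 replicate 1, 14 without siRCC2 replicate 2 and 13 without siCtrl replicate 2. Lower calls over all genes tested moved the same way, with more without siRCC2 replicate 1 and fewer without siRCC2 replicate 2 or siCtrl replicate 2. Without siRCC2 replicate 2 or siCtrl replicate 2, the members lost a larger share of their lower calls than all genes tested did. Whether the members were less stable than other genes was not tested, and the direction of these shifts alone cannot decide it. The count of higher members ran from 8 to 13 as each library was left out. Called changes of at least 2-fold were those of NUP210, NUP58 and NUP62CL, lower (5.17% of members), and KPNA7, higher (1.72%), against 7.19% and 4.86% of all genes tested.

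**Figure D1:**
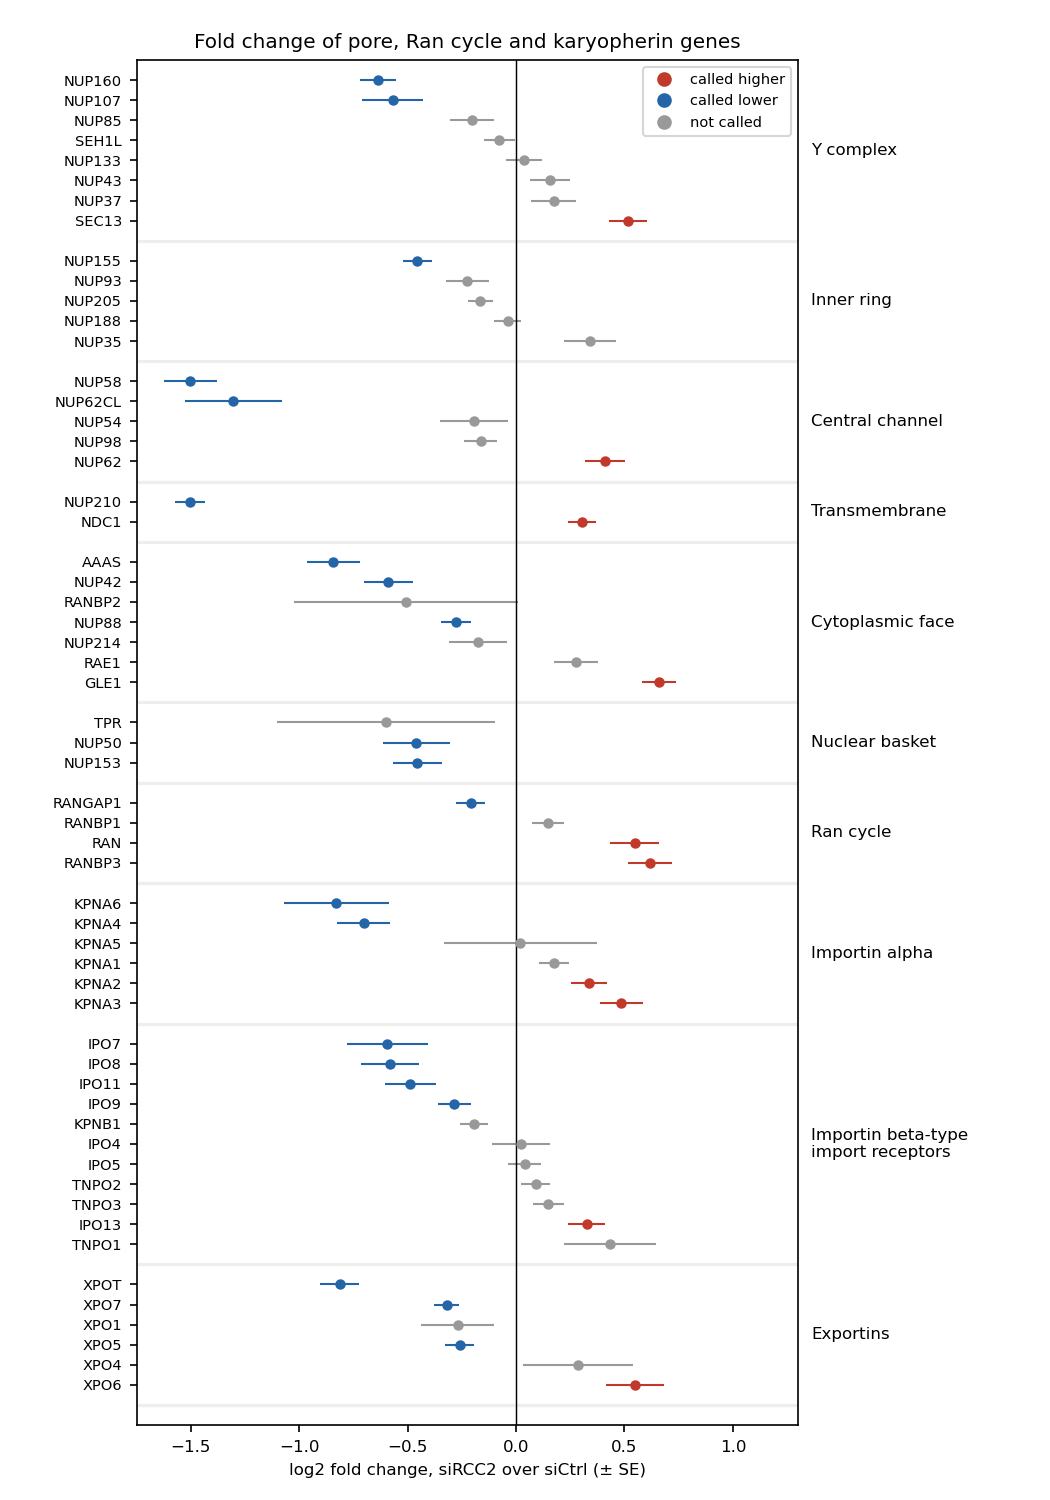
Log2 fold change of siRCC2 over siCtrl (horizontal axis) for 57 of the 58 tested genes, grouped by their place in the pore or the transport cycle; bars are standard errors from the edgeR fit (3 libraries per group) and colours show the call at an adjusted p under 0.05. NUP210 and NUP58 lie farthest to the left at -1.50, every role but the nuclear basket has genes on both sides of 0, and KPNA7 (3.10, from 2 counts per siCtrl library) is left out to keep the scale.

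The transmembrane nucleoporins anchor the pore in the envelope, and the 2 that were tested went opposite ways. NUP210 encodes gp210, a glycoprotein that spans the membrane and lies mostly in the perinuclear space (chromosome 3, 13316235 to 13420309, minus strand, GRCh38). Its level was 441, 441 and 423 CPM in siCtrl and 165, 153 and 143 CPM in siRCC2. Every siRCC2 library was thus far below every siCtrl library, and the libraries within a group lay close together. The mean went from 435 ± 10.3 to 154 ± 10.6 CPM (SD, n = 3), 2.83-fold lower (log2 scale -1.50 ± 0.07, SE; adjusted p = 3.43e-05). NDC1, which spans the membrane several times and ties the rings to it, went from 65.6 ± 1.28 to 81.0 ± 1.25 CPM and was called higher (0.30 ± 0.07, adjusted p = 0.00943). Per kilobase of transcript, NUP210 was the most abundant transmembrane gene in siCtrl, at 60.5 CPM per kilobase against 12.8 for NDC1. In siRCC2 the corresponding levels were 21.3 and 15.8.

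NUP58, NUP54 and NUP62 form the complex of the central channel, whose phenylalanine-glycine repeats make the permeability barrier, and their transcripts did not move together. NUP58 (chromosome 13, 25301524 to 25349800, plus strand) had 117, 102 and 110 CPM in siCtrl and 34.1, 36.8 and 45.4 CPM in siRCC2. The groups were far apart, and the fall was 2.83-fold (-1.50 ± 0.12 on the log2 scale, adjusted p = 0.000180). NUP62 (chromosome 19, 49906825 to 49929763, minus strand) had 148, 155 and 134 CPM in siCtrl and 215, 182 and 184 CPM in siRCC2, each siRCC2 library above each siCtrl library. It was called higher (0.41 ± 0.09, adjusted p = 0.0113), although 19.0% of its 50-base stretches also occur in transcripts of other genes. NUP62 overlaps ATF5 on the opposite strand, as RANBP3 does CAPS, RANBP1 does TRMT2A, NUP188 does SH3GLB2, XPO5 does POLR1C, NUP43 does PCMT1, NUP98 does PGAP2, NUP153 does AL138724.1, IPO11 does CKS1BP3, KPNA4 does KRT8P12, IPO4 does REC8, and NUP88 does RABEP1 and RPAIN. These overlaps are of whole gene spans, introns included, and overlap of exons was not checked. Where exons do overlap, reads from such a pair cannot be told apart without known strand. NUP54 was at 26.0 ± 1.10 and 22.7 ± 4.78 CPM (-0.19 ± 0.16, adjusted p = 0.364; -0.07 without siRCC2 replicate 1). Per kilobase of the principal transcript, NUP58 and NUP62 were at 44.1 and 40.6 CPM per kilobase in siCtrl, and at 15.6 and 53.9 in siRCC2. With its longest coding transcript, NUP58 would be at 17.3 in siCtrl. NUP98, a mobile repeat protein on both sides of the pore, did not pass (-0.16 ± 0.07, adjusted p = 0.116). NUP62CL, a little-studied relative of NUP62, had 4.52, 4.20 and 4.02 CPM in siCtrl and 2.06, 1.91 and 1.21 CPM in siRCC2 (-1.30 ± 0.22, adjusted p = 0.00362). These are 91, 78 and 78 counts in siCtrl and 34, 37 and 23 in siRCC2. AL390039.1, overlapping NUP62CL on the opposite strand, had 9, 15 and 17 counts in siCtrl and 21, 34 and 34 in siRCC2. Whether exons of this pair overlap was not checked either.

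The outer ring is built of the Y complex, whose subunits form its arms and stalk. SEC13 and SEH1L are among its small propeller proteins. Of 8 tested genes, 2 were lower, 1 was higher and 5 did not pass, with a median log2 fold change of -0.02. NUP160, an arm of the Y, had 93.0, 92.0 and 95.3 CPM in siCtrl and 54.4, 63.9 and 61.9 CPM in siRCC2. All siRCC2 values were below all siCtrl values, and the gene was called lower (-0.64 ± 0.08, adjusted p = 0.00114). NUP107, in the stalk, was also called lower (-0.57 ± 0.14, adjusted p = 0.0158), a call that was lost without siCtrl replicate 3 (adjusted p = 0.0581). SEC13, which serves in COPII vesicle coats as well as in the pore, had 66.1, 62.0 and 55.3 CPM in siCtrl and 90.1, 86.6 and 85.5 CPM in siRCC2. It was called higher (0.51 ± 0.09, adjusted p = 0.00331) and was the most abundant Y complex gene per kilobase. The other stalk and arm genes NUP133 (0.04), NUP85 (-0.20), NUP43 (0.16) and NUP37 (0.17), and SEH1L (-0.08), had smaller log2 fold changes. Without siRCC2 replicate 1, NUP133 was at 0.08, NUP43 at 0.08 and NUP37 at 0.09. NUP133 shares 7.39% of its 50-base stretches with AL160004.1. NUP85 was called lower without siRCC2 replicate 1 (-0.31, adjusted p = 0.0240).

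The inner ring held 1 called gene of 5. NUP155, a scaffold protein that contacts the membrane, went from 268 ± 5.70 to 196 ± 11.5 CPM (-0.46 ± 0.07, adjusted p = 0.00181). NUP188 was the most abundant inner ring gene per kilobase, with 341, 358 and 358 CPM in siCtrl and 361, 341 and 327 CPM in siRCC2. These values overlap, and its log2 fold change was -0.04 ± 0.06 (adjusted p = 0.652; -0.09 without siRCC2 replicate 1). Its relative NUP205 (-0.16 ± 0.06, adjusted p = 0.0612) and NUP93, which links the inner ring to the channel complex (-0.22 ± 0.10, adjusted p = 0.106), did not pass. Without siRCC2 replicate 1, NUP205 and NUP93 passed (-0.17 and -0.33, adjusted p = 0.0482 and 0.0125). NUP35, a membrane-binding subunit, was at 0.34 ± 0.12 (adjusted p = 0.0560). It passed narrowly with DESeq2 size factors (0.0461), with the DESeq2 Wald test (0.0486) and with a filter at 1 CPM (0.0463).

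On the cytoplasmic face, 3 of 7 genes were lower, 1 was higher and 3 did not pass. AAAS encodes ALADIN, the protein mutated in triple A syndrome (chromosome 12, 53307456 to 53324864, minus strand). It had 86.6, 92.5 and 95.5 CPM in siCtrl and 55.4, 55.7 and 42.0 CPM in siRCC2. No siRCC2 library reached the siCtrl range, and the gene was called lower (-0.84 ± 0.12, adjusted p = 0.00176). Its known anchor at the pore is NDC1, whose transcript was higher. GLE1 and NUP42 encode partners that activate the helicase of mRNA export at the pore, and they were called in opposite directions. GLE1 (chromosome 9, 128504700 to 128542288, plus strand) had 49.8, 50.3 and 54.6 CPM in siCtrl and 82.8, 84.9 and 76.4 CPM in siRCC2, with no overlap (0.66 ± 0.08, adjusted p = 0.000853). NUP42 went from 18.0 ± 1.09 to 11.9 ± 1.00 CPM (-0.59 ± 0.11, adjusted p = 0.00580). NUP88 and NUP214 form the platform that these factors dock on. NUP88 was called lower (-0.28 ± 0.07, adjusted p = 0.0171) but not without siCtrl replicate 1, siCtrl replicate 2 or siRCC2 replicate 2 (adjusted p = 0.0693, 0.0657 and 0.0946). RPAIN, on the strand opposite NUP88, had 865, 778 and 834 counts in siCtrl and 566, 617 and 589 in siRCC2. RABEP1, on that strand too, had 1235, 1110 and 1213 counts in siCtrl and 803, 1270 and 1491 in siRCC2. NUP214 did not pass (-0.18 ± 0.13) except without siRCC2 replicate 1 (-0.32, adjusted p = 0.0445). The mRNA export factor RAE1 was at 0.28 ± 0.10 (adjusted p = 0.0623) and passed without siRCC2 replicate 3 (0.35, adjusted p = 0.0278).

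RANBP2 encodes the giant filament protein that carries Ran-binding domains and holds RANGAP1 at the pore, and TPR encodes the coiled-coil backbone of the nuclear basket. In both, the siRCC2 libraries spread widely. RANBP2 had 51.9, 57.3 and 76 CPM in siCtrl and 14.0, 40.3 and 75.9 CPM in siRCC2. TPR had 90.8, 104 and 129 CPM in siCtrl and 25.5, 59.1 and 128 CPM in siRCC2. In both genes siRCC2 replicate 1 was below every siCtrl library, replicate 2 was below it by less, and replicate 3 lay within the siCtrl range. The highest siRCC2 value was 5.44 times the lowest for RANBP2 and 5.04 times for TPR. Log2 fold changes were -0.51 ± 0.52 (adjusted p = 0.464) and -0.60 ± 0.50 (adjusted p = 0.374). They were -0.11 and -0.22 without siRCC2 replicate 1 (adjusted p = 0.782 and 0.600), and -1.18 and -1.34 without siRCC2 replicate 3 (adjusted p = 0.0710 and 0.0266), where TPR passed and RANBP2 did not. RANBP2 shares 27.1% of its 50-base stretches with other genes, mainly its partial copies the RGPD genes, and the sum of RANBP2 and 7 RGPD rows spread 4.23-fold in siRCC2, with 1854, 1735 and 2299 counts in siCtrl and 440, 1319 and 2148 in siRCC2.

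The other basket genes were lower by a similar amount. NUP153, a basket protein that binds importins and lamins, had 143, 146 and 150 CPM in siCtrl and 88.6, 113 and 119 CPM in siRCC2 (-0.46 ± 0.11, adjusted p = 0.0165). Its groups did not overlap, and the call was lost without siCtrl replicate 2 (adjusted p = 0.0506) or replicate 3 (0.0566). NUP50, which helps to strip cargo from importin alpha, was at -0.46 ± 0.15 (adjusted p = 0.0486). That call was lost without any 1 of the siCtrl libraries or without siRCC2 replicate 2 (adjusted p from 0.0855 to 0.126), and 15.3% of its 50-base stretches occur elsewhere.

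**Figure D2:**
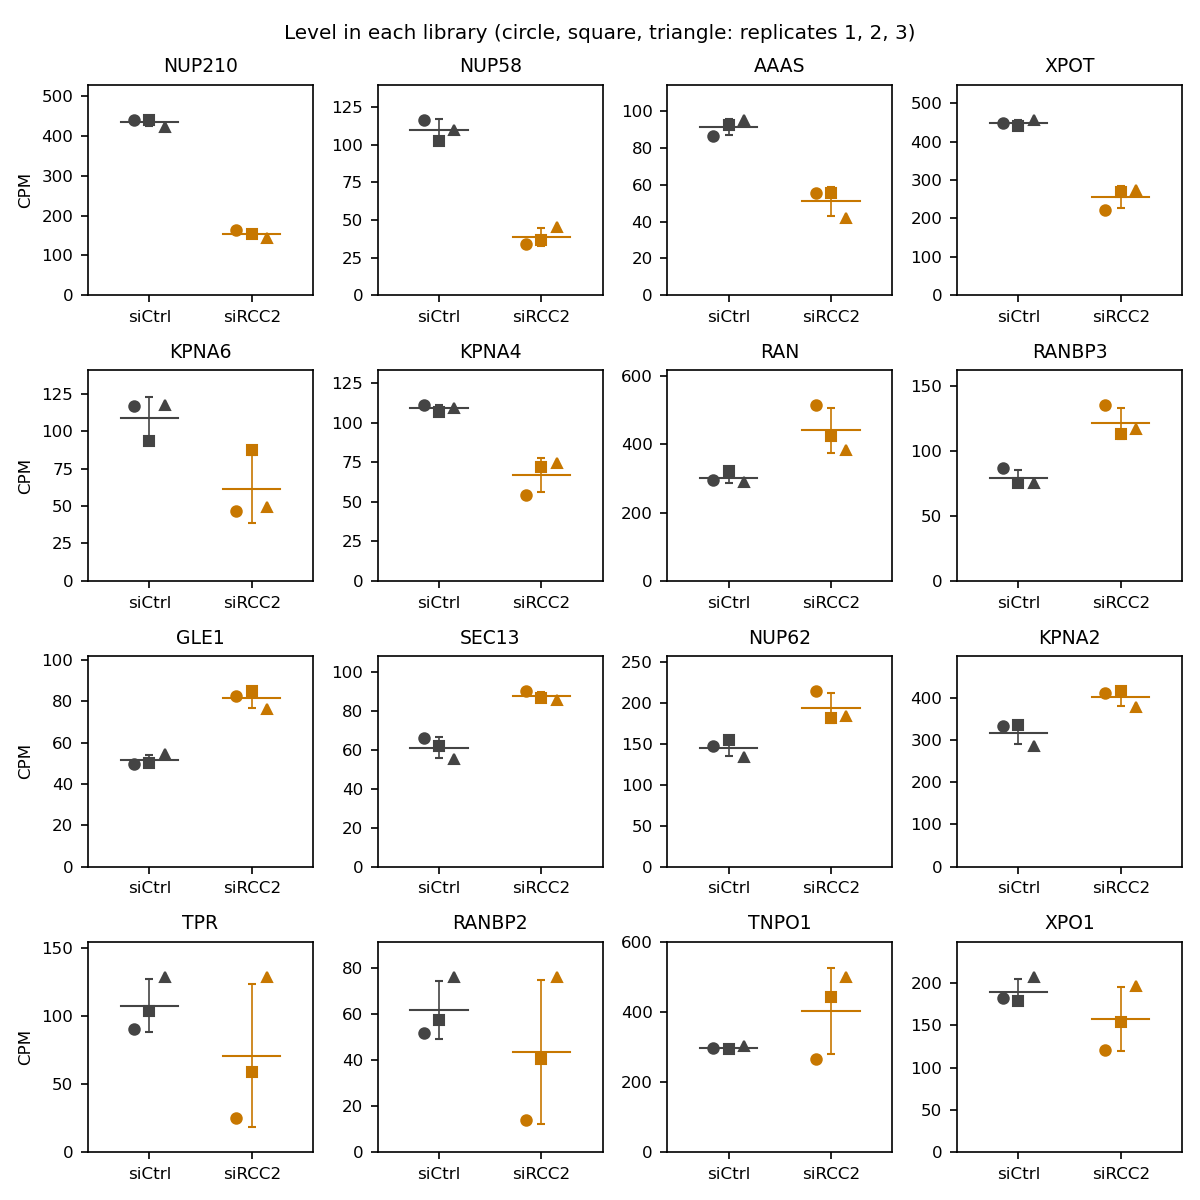
Level (CPM, vertical axis from 0) of 16 transport genes in each siCtrl (grey) and siRCC2 (orange) library; circles, squares and triangles are replicates 1, 2 and 3, horizontal lines are means and bars are SD (n = 3). NUP210, NUP58, AAAS, XPOT and KPNA4 show groups far apart, whereas in TPR and RANBP2 the siRCC2 libraries run from 25.5 to 128 and from 14.0 to 75.9 CPM, with replicate 1 lowest.

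In the Ran cycle, the GTPase and 1 of its binding proteins rose and the GTPase-activating protein was slightly lower. RAN (chromosome 12, 130871879 to 130877678, plus strand) had 295, 321 and 290 CPM in siCtrl and 514, 426 and 384 CPM in siRCC2. The lowest siRCC2 value was above the highest siCtrl value. The mean went from 302 ± 16.8 to 441 ± 66.5 CPM (log2 scale 0.55 ± 0.11, adjusted p = 0.00769), and the change was 0.41 without siRCC2 replicate 1 (adjusted p = 0.00551). RAN shares 9.53% of its 50-base stretches with its pseudogenes. RANBP3, a cofactor of the exportin XPO1, had 86.9, 75.2 and 75.8 CPM in siCtrl and 135, 113 and 117 CPM in siRCC2 (0.62 ± 0.10, adjusted p = 0.00275). These groups did not overlap either.

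RANGAP1 had 279, 289 and 275 CPM in siCtrl and 257, 244 and 227 CPM in siRCC2, each siRCC2 library lower. Its log2 fold change of -0.21 ± 0.07 was close to the threshold (adjusted p = 0.0429). The call was lost without any 1 of 5 libraries (adjusted p from 0.0876 to 0.216), all but siRCC2 replicate 1, with the replicate block (0.0615), with DESeq2 size factors (0.0906), with the DESeq2 Wald test (0.156) and with a filter at 1 CPM (0.0851). RANBP1, which helps RANGAP1 to act on Ran, had 259, 225 and 226 CPM in siCtrl and 266, 254 and 266 CPM in siRCC2 (0.15 ± 0.08, adjusted p = 0.159). Those values overlap, and 30.2% of its 50-base stretches occur in other genes. RANBP1 had the highest level per kilobase of all members, 283 CPM per kilobase in siCtrl and 313 in siRCC2. RAN was at 114 and 166 CPM per kilobase and RANGAP1 at 66.5 and 57.5.

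**Figure D3:**
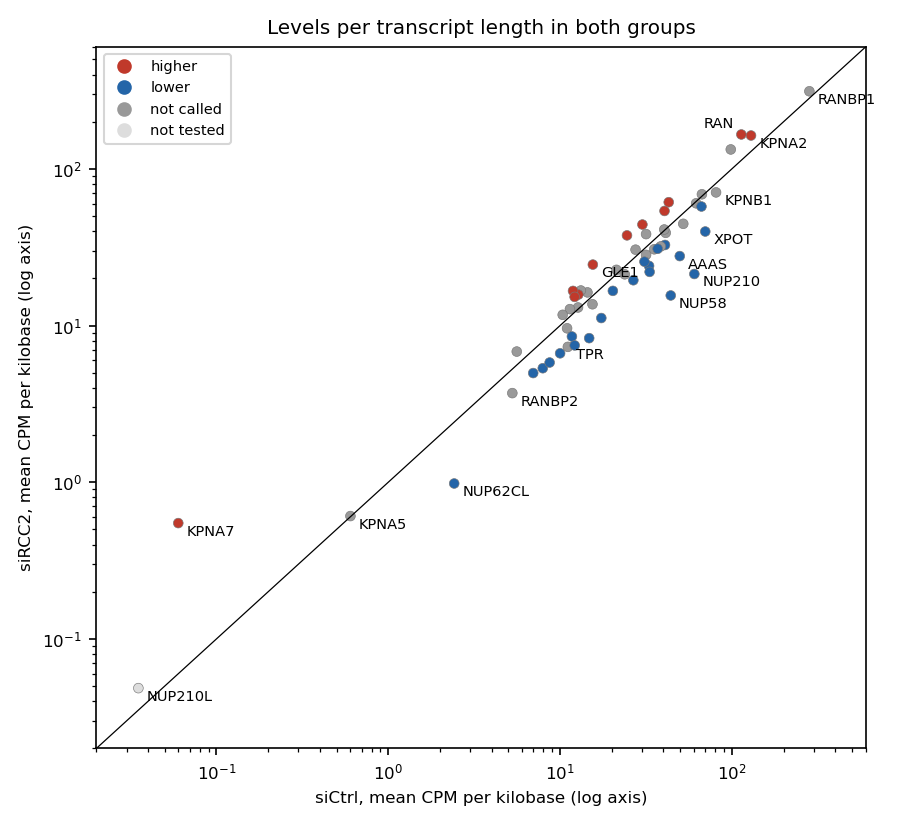
Mean level per kilobase of transcript (CPM per kilobase, log axes) of all 59 genes in siCtrl (horizontal) and siRCC2 (vertical), coloured by call, with the line of equal levels. RANBP1, KPNA2 and RAN are the 3 highest, at upper right, NUP210 and NUP58 lie below the line, and KPNA7 and the untested NUP210L are at the lower left, below 1 CPM per kilobase.

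The importin alpha family, whose members read the classical import signal and share it unequally among cargoes, changed in composition. KPNA2 (chromosome 17, 68035519 to 68046842, plus strand), the main importin alpha of proliferating cells, had 333, 334 and 286 CPM in siCtrl and 411, 416 and 377 CPM in siRCC2. The groups did not overlap, and the gene was called higher (0.34 ± 0.08, adjusted p = 0.0156), except without siCtrl replicate 3 (0.0516) or siRCC2 replicate 2 (0.0747). KPNA2 shares 17.3% of its 50-base stretches with pseudogenes, and the row of KPNA2P3 held 71 to 85 counts in siCtrl and 16 to 26 in siRCC2. KPNA3, of the KPNA3 and KPNA4 pair, had 54.4, 53.2 and 52.1 CPM in siCtrl and 66.0, 73.9 and 83.5 CPM in siRCC2 (0.48 ± 0.10, adjusted p = 0.00764). Its close relative KPNA4 (chromosome 3, 160494995 to 160565588, minus strand) had 111, 107 and 110 CPM in siCtrl and 54.6, 72.0 and 74.7 CPM in siRCC2. That gene was called lower (-0.70 ± 0.12, adjusted p = 0.00380), so the paralogs were called in opposite directions.

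KPNA6, of the KPNA1, KPNA5 and KPNA6 branch (chromosome 1, 32108038 to 32176568, plus strand), had 117, 93.2 and 117 CPM in siCtrl and 46.9, 87.4 and 49.6 CPM in siRCC2. Replicate 2 of siRCC2 lay just below the lowest siCtrl library, and the others were far lower. KPNA6 was called lower (-0.83 ± 0.24, adjusted p = 0.0303), but not without siCtrl replicate 1 (0.0874), siCtrl replicate 3 (0.0872), siRCC2 replicate 1 (0.0602) or siRCC2 replicate 3 (0.0788). Its log2 fold change was -0.68 without siRCC2 replicate 1. KPNA6 shares 8.79% of its 50-base stretches with other genes, mostly with AL049795.2 inside it on the same strand, which had 0 counts in each siCtrl library and 26, 0 and 18 in siRCC2. KPNA1 was at 0.18 ± 0.07 (adjusted p = 0.0787) and KPNA5 at 0.02 ± 0.35 (adjusted p = 0.968). KPNA5 had 3.26 CPM in siRCC2 replicate 1 against 8.04 and 9.33 in the other siRCC2 libraries. Its sign changed with the scaling, and it was at 0.33 without siRCC2 replicate 1 (adjusted p = 0.144). Of its 50-base stretches, 9.37% occur in other genes.

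KPNA7, an importin alpha of oocytes and early embryos that is nearly silent in most adult cells (chromosome 7, 99173574 to 99207506, minus strand), had 2 counts in each siCtrl library and 22, 14 and 15 in the siRCC2 libraries. It was called higher (3.10 ± 0.45, adjusted p = 0.00180). The summed counts of 6 and 51 give a scaled ratio of 8.98, with an exact 95% interval from 3.85 to 25.6 that covers counting error only. Its mean level of 0.548 CPM per kilobase in siRCC2 was the lowest of the family, beside 0.608 for KPNA5, although in siRCC2 replicate 1 it held more of the importin alpha sum than KPNA5 (0.373% and 0.139%).

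Summed per kilobase, importin alpha transcripts went from 179 ± 10.2 to 209 ± 8.93 CPM per kilobase (SD, n = 3). KPNA2 made up 72.6%, 74.1% and 69.5% of that sum in siCtrl and 80.8%, 77.5% and 76.5% in siRCC2. KPNA4 made up 6.81 ± 0.42% and 3.58 ± 0.61%, KPNA6 8.28 ± 1.31% and 3.95 ± 1.28%, and KPNA3 6.65 ± 0.26% and 8.0 ± 1.14%. The shares of these 4 genes did not overlap between the groups. These shares are descriptions, with no test. They depend on the transcript lengths used, 2456 bases for KPNA2 against 8981 for KPNA4, 7378 for KPNA6 and 4474 for KPNA3. The longest coding transcripts of these genes have the same lengths, so that alternative does not vary the shares.

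**Figure D4:**
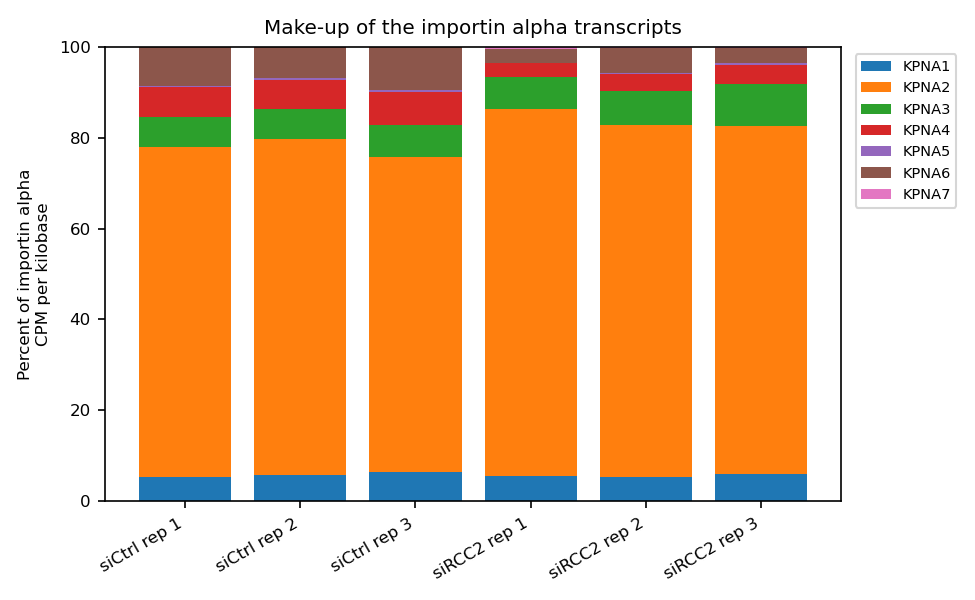
Percent of the summed importin alpha level (CPM per kilobase) held by each of the 7 KPNA genes, 1 stacked bar per library. KPNA2 holds 69.5% to 74.1% in the siCtrl libraries and 76.5% to 80.8% in the siRCC2 libraries, and the bands of KPNA4 and KPNA6 are narrower in siRCC2.

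Among the 11 importin beta-type receptors, 4 were lower, 1 was higher and 6 did not pass. KPNB1, importin beta itself, had 473, 517 and 500 CPM in siCtrl and 412, 446 and 446 CPM in siRCC2. Every siRCC2 library was lower, but the log2 fold change of -0.19 ± 0.07 missed the threshold (adjusted p = 0.0504). It passed with upper-quartile factors (0.0373), total counts alone (0.0202), limma-voom (0.0496) and when every gene with a read was kept (0.0467). IPO7 and IPO8, close relatives that carry ribosomal proteins, histones and signalling proteins, were both called lower. IPO7 went from 206 ± 8.55 to 136 ± 36.5 CPM (-0.59 ± 0.19, adjusted p = 0.0394) and IPO8 from 46.3 ± 2.11 to 30.9 ± 5.44 CPM (-0.58 ± 0.14, adjusted p = 0.0128). The IPO7 call was lost without any 1 of the siCtrl libraries or without siRCC2 replicate 2 (adjusted p from 0.0544 to 0.106), and 12.4% of the 50-base stretches of IPO7 occur elsewhere, mainly in its pseudogenes.

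IPO9, an importer of histones and actin, was called lower (-0.29 ± 0.08, adjusted p = 0.0218), but not when any 1 siCtrl library or siRCC2 replicate 2 was left out (adjusted p from 0.0512 to 0.0724). IPO11 was at -0.49 ± 0.12 (adjusted p = 0.0141, and 0.0543 without siCtrl replicate 2), and 8.82% of its 50-base stretches lie in the overlapping KIF2A, which was at -1.33. IPO11 had 620, 621 and 523 counts in siCtrl and 329, 428 and 440 in siRCC2. CKS1BP3, on the strand opposite IPO11, had 1705, 1612 and 1665 counts in siCtrl and 1242, 1211 and 1122 in siRCC2. IPO13, which works in both directions, was called higher (0.33 ± 0.09, adjusted p = 0.0207). That call was lost without siCtrl replicate 1 (0.0782), siCtrl replicate 3 (0.0810) or siRCC2 replicate 2 (0.0587), and when every gene with a read was kept (0.0548). IPO4 (0.02 ± 0.13) and IPO5 (0.04 ± 0.08) did not pass and changed sign with total counts alone. Without siRCC2 replicate 1 they were at -0.11 and -0.01. IPO4 cannot be told apart from the overlapping AL136295.4, which holds 95.1% of its 50-base stretches, and the pair summed to 159 CPM in siCtrl and 169 CPM in siRCC2, a log2 ratio of 0.09.

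The transportins import proteins such as hnRNPs and splicing factors. TNPO1 had 297, 296 and 303 CPM in siCtrl and 265, 443 and 501 CPM in siRCC2. Replicate 1 of siRCC2 was below siCtrl and the other siRCC2 libraries were well above it. Its log2 fold change was 0.43 ± 0.21 (adjusted p = 0.141) in all libraries and 0.65 without siRCC2 replicate 1 (adjusted p = 0.000455). TNPO1 was the most abundant of these receptors per kilobase with its principal transcript, at 98.6 CPM per kilobase in siCtrl. With its longest coding transcript the level would be 26.7, below the 80.9 of KPNB1. TNPO1 shares 7.72% of its 50-base stretches with its pseudogenes. TNPO3, the importer of SR splicing factors (0.15 ± 0.07), passed only without siRCC2 replicate 1 (0.19, adjusted p = 0.0441), and TNPO2 was at 0.09 ± 0.07 (adjusted p = 0.311; 0.06 without siRCC2 replicate 1).

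Of 6 exportins, 3 were lower, 1 was higher and 2 did not pass. XPOT, the exporter of tRNA (chromosome 12, 64404350 to 64451127, plus strand), had 448, 442 and 458 CPM in siCtrl and 222, 270 and 275 CPM in siRCC2. The groups were far apart, and XPOT went from the most abundant exportin per kilobase (70.0 CPM per kilobase) to 39.8, below XPO6. Its log2 fold change was -0.81 ± 0.09 (adjusted p = 0.000625). The pseudogene XPOTP1 was at -0.72 ± 0.12, and 10.3% of the 50-base stretches of XPOT occur in other genes.

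XPO6, the exporter of actin and profilin (chromosome 16, 28097979 to 28211920, minus strand), had 151, 128 and 121 CPM in siCtrl and 224, 199 and 163 CPM in siRCC2. The groups came close without touching, and the gene was called higher (0.55 ± 0.13, adjusted p = 0.0153). That call was lost without siCtrl replicate 2 (0.0585), siCtrl replicate 3 (0.0599) or siRCC2 replicate 2 (0.0563). XPO1, the exporter of proteins with a leucine-rich signal, had 183, 178 and 207 CPM in siCtrl and 121, 154 and 197 CPM in siRCC2. These values overlap (-0.27 ± 0.17, adjusted p = 0.242), and XPO1 was at -0.13 without siRCC2 replicate 1 (adjusted p = 0.416) and at -0.46 without siRCC2 replicate 3 (adjusted p = 0.0296), the only setting run in which it passed. XPO7 was called lower (-0.32 ± 0.06, adjusted p = 0.00484), except without siRCC2 replicate 2 (0.0582). XPO5, the exporter of microRNA precursors, was at -0.26 ± 0.07 (adjusted p = 0.0189), and lost the call without siCtrl replicate 1 (0.0547), siCtrl replicate 2 (0.0775) or siRCC2 replicate 2 (0.144) and with the DESeq2 Wald test (0.0579). XPO4 was at 0.29 ± 0.25 (adjusted p = 0.401), and at 0.47 without siRCC2 replicate 1 (adjusted p = 0.122).

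Calls went with transcript length. Of 26 tested members whose principal transcript has at least 5000 bases, 13 were lower and 1 was higher (NDC1), with a median log2 fold change of -0.37. Of the 32 shorter ones, 8 were lower and 10 higher, with a median of 0.15. All coding genes showed a smaller difference of the same kind: 26.4% of 3161 long genes were lower and 16.5% higher, with a median of -0.14, against 22.4% and 22.6% of 10224 shorter genes, with a median of -0.00. Length also went with the level in siRCC2 replicate 1. The log2 ratio of replicate 1 to the mean of replicates 2 and 3 had a median of -0.21 in the long members and 0.07 in the shorter ones. It was lowest in RANBP2 (-2.02), TPR (-1.86) and KPNA5 (-1.29), and its Spearman correlation across the 58 members was -0.485 with length and 0.658 with GC content, as a description across genes of the same 3 libraries (-0.355 and 0.561 across 13385 coding genes). NUP210 is also long, and its GC content was 58.3%, beside a median of 42.6% in the long members. Its replicate 1 was slightly above the other siRCC2 libraries (0.15). Whether length, GC content or RNA quality plays a part in these calls was not tested.

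**Figure D5:**
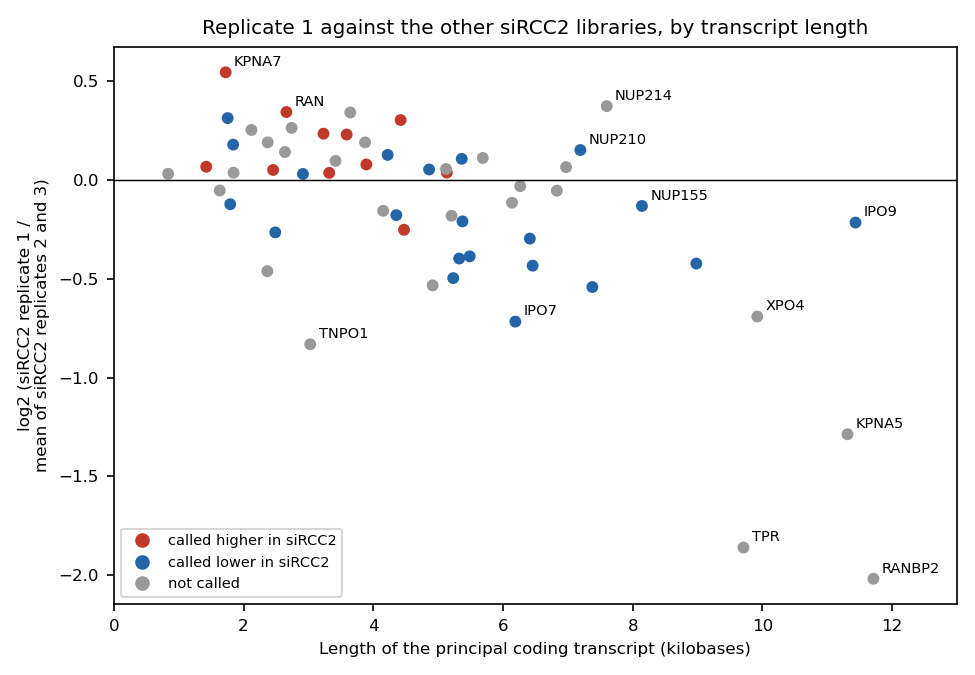
Log2 ratio of siRCC2 replicate 1 to the mean of siRCC2 replicates 2 and 3 (vertical axis) against the length of the principal coding transcript (horizontal axis, kilobases) for the 58 tested genes, coloured by call. RANBP2, TPR and KPNA5 lie lowest at -2.02, -1.86 and -1.29, and all but 1 of the genes called higher are shorter than 5 kilobases.

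Several of the genes with the largest falls carry the 6-base word TCTGGA in the 3′ UTR. Earlier results of these same data had shown this word more often in genes that fell, so its presence here is a description and not independent support. Genes were taken where the 3′ UTR spans 100 bases or more. Over all coding genes, the word was found in 52.6% of 2978 lower genes, 38.5% of 6876 not called and 32.6% of 2706 higher ones. Among the members it was found in 12 of 20 lower genes, 7 of 24 not called and 4 of 11 higher. The 3′ UTRs of the lower members were longer (median 1517.5 bases, against 543 in the higher ones), and per kilobase of 3′ UTR the word occurred 0.479 times in the lower, 0.246 times in those not called and 0.452 times in the higher members. The windows below show the word in capitals with 8 bases on each side, on the sense strand, 5′ to 3′, for NUP210, NUP58, XPOT, KPNA4 and the first of 6 sites of KPNA6, all lower, and for RAN, RANBP3 and KPNA3, which were higher. They are written with T for U, from GENCODE 29 transcripts on GRCh38.
NUP210 site 1 (chr3:13317400-13317405, minus strand): ctagggttTCTGGAcaatgtgc
NUP210 site 2 (chr3:13316536-13316541, minus strand): ctcctgatTCTGGAtctgagat
NUP58 (chr13:25340259-25340264, plus strand): ttccctacTCTGGAatttgaac
XPOT (chr12:64448699-64448704, plus strand): aagtctttTCTGGAattattat
KPNA4 (chr3:160499181-160499186, minus strand): cacattgcTCTGGAccaaacct
KPNA6 site 1 (chr1:32171063-32171068, plus strand): gagcacccTCTGGAcagacaga
RAN (chr12:130877544-130877549, plus strand): gttgacatTCTGGAtcttctat
RANBP3 (chr19:5917475-5917480, minus strand): ggccacagTCTGGAcccgcacg
KPNA3 (chr13:49699735-49699740, minus strand): tagtttctTCTGGActttcctt
The word stands in both directions of change: KPNA6 holds 6 copies and was lower, KPNA4 and its relative KPNA3 hold 1 each and were called in opposite directions, and NUP160 and AAAS were lower with none, AAAS having a 3′ UTR of only 33 bases.

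Other genes of nuclear transport and the nuclear envelope, which the naming rule does not take, gave 6 higher, 15 lower and 30 not called of 51 tested (11.8% higher and 29.4% lower, beside 20.7% and 21.1% of all genes tested), with a median log2 fold change of -0.19. The RGPD genes, partial copies of RANBP2, are not among them: 4 were tested, and RGPD6 was called lower (-1.14 ± 0.27, adjusted p = 0.0138). RCC1, the exchange factor of Ran, had 99.6, 64.3 and 93.8 CPM in siCtrl and 139, 79.0 and 115 CPM in siRCC2 (0.37 ± 0.24, adjusted p = 0.250). Its values overlap. CSE1L, which returns importin alpha to the cytoplasm, was at 131 ± 10.3 and 133 ± 19.2 CPM (0.02 ± 0.12, adjusted p = 0.900). The smallest adjusted p-values were those of 4 genes that fell. The B-type lamins LMNB2 (673 ± 3.51 to 395 ± 28 CPM, -0.77 ± 0.07, adjusted p = 0.000248) and LMNB1 (75.9 ± 5.24 to 43.7 ± 1.45 CPM, -0.80 ± 0.08, adjusted p = 0.000447) were lower. So were SENP2, a SUMO protease at the basket (-0.70 ± 0.08, adjusted p = 0.000593), and SUN1, which links lamins to the cytoskeleton (-0.52 ± 0.06, adjusted p = 0.000812). The genes called higher were NXF1, the main mRNA export receptor (0.88 ± 0.11, adjusted p = 0.00102), the export helicase DDX19A (0.94 ± 0.14), NUTF2, which carries Ran back into the nucleus (0.69 ± 0.12), the transmembrane nucleoporins POM121 (0.45 ± 0.06) and POM121C (0.49 ± 0.06), and TOR1AIP2, an activator of torsin in the endoplasmic reticulum (0.57 ± 0.15). DDX19B, next to DDX19A on chromosome 16, was not called (54.2 ± 3.12 to 47.1 ± 2.61 CPM, -0.20 ± 0.09, adjusted p = 0.0962). Sequence shared by DDX19A and DDX19B was not measured. POM121 and POM121C, which are near copies of each other, went the way of NDC1 and not of NUP210.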

How the data were processed

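RNA was measured by sequencing in 6 DU145 libraries. Per the labels' protocols, an MGI kit turned total RNA into libraries; whether strand was kept is not given in the sources used here. The processing notes of the submitters name Bowtie2, RSEM and DESeq2 with GRCh38, without versions. The authors deposited whole-number counts per gene, which may be rounded RSEM estimates; RSEM splits reads between genes that share sequence, so members with 5% or more of such sequence are marked. The groups and replicate numbers come from the titles.

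Counts were tested with edgeR 4.0.16 in R 4.3.3: filterByExpr by group, TMM scaling, quasi-likelihood F-test, and Benjamini-Hochberg adjustment over 16536 genes, called at 0.05. Fold changes are siRCC2 over siCtrl; the SE is the size of the change over the root of F. The test was checked on simulated counts. Replicates of a group differed beyond sampling noise (chi-square over its degrees of freedom: 10.2 to 34.1), and the biological coefficient of variation was 16.6%. Alternatives used DESeq2 1.42.0, limma 3.58.1, other scalings and filters, a replicate block, each library left out and a threshold of 0.01.

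GENCODE 29 (all 59 genes at identical coordinates) gave lengths and 3′ UTRs, from the longest APPRIS principal coding transcript. The longest coding transcript was tried first and replaced after its values were seen. Shared sequence is the percent of 50-base stretches found in other genes' transcripts. CPM means carry SD over 3 libraries. Replicate ratios use a pseudocount of 0.5 CPM.

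Named with values in each library were RAN, KPNB1, XPO1, RANGAP1, RANBP1, RANBP2 and TPR, the 8 largest rises and 8 largest falls among called members, and the most abundant member per kilobase of each role; other members were added after their values were seen. The members and lists were chosen with earlier results of these data known, and the 20 CPM level, the length split and the importin alpha shares were set after seeing the data. A promoter motif search was also run and is not reported. A list of prostate markers is not reported here. Python 3.11.15 drew the figures.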

Additional observations from a re-analysis of the deposited data

How the results depend on the processing

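Across the other scalings, tests and filters, 10 to 12 members were called higher (11 in the reported test) and 19 to 26 lower (21). With an adjusted p under 0.01, the counts were 7 and 10 members, and 2069 higher and 2048 lower of all genes. Leaving out each library in turn gave 8 to 13 members higher and 13 to 24 lower. Over all genes tested, leaving out any library but siRCC2 replicate 1 gave fewer higher and fewer lower calls than the reported test. The members differed from this without siRCC2 replicate 3, with 12 higher and 21 lower. Among the members, 8 of the 11 higher calls and 10 of the 21 lower calls were kept each time. The matching share over all genes is not given here, so these counts do not compare the members with other genes. Without siRCC2 replicate 1, 13 were higher, 11 of them shared with the reported test, and 24 were lower, 20 of them shared. Deviations of same-numbered libraries from their group means had correlations of 0.059, -0.042 and 0.099, and those of differently numbered libraries ran from -0.119 to 0.062. With 3 libraries per group, these values cannot show whether the replicate numbers pair the libraries. With the replicate block, 11 members were higher and 20 lower, 3075 and 3220 of all genes, 23 other transport genes were called in place of 21, RCC2 was at -1.765, and of the members only RANGAP1 lost its call. Total counts alone added calls for KPNB1, NUP205, NUP85, NUP93 and NUP98, all lower. The median of all genes was -0.08 with total counts alone, against -0.02.

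A few small log2 fold changes changed sign, and none of these was called; the cause was not tested. With total counts alone, NUP133 was at -0.032, KPNA5 at -0.042, IPO4 at -0.051 and IPO5 at -0.030. KPNA5 was at -0.007 with upper-quartile factors, -0.085 with limma-voom, -0.012 when every gene with a read was kept and -0.071 with the replicate block, and IPO4 at -0.011 when every gene with a read was kept. Leaving out single libraries, KPNA5 ran from -0.256 to 0.335, IPO4 from -0.114 to 0.149 and IPO5 from -0.009 to 0.098. With the longest coding transcript in place of the principal one, an alternative chosen after seeing the data, 14 members of at least 5000 bases were lower and 1 higher, and the word TCTGGA was in 12 of 20 lower members, as reported, but in 10 of 25 not called (40%) in place of 7 of 24 (29.2%), and in 4 of 11 higher. At this depth a gene at 0.1 CPM, such as KPNA7 in siCtrl, rests on 2 counts per library.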
